A study of Homo sapiens with 14 samples.

Results

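The genes described here are 9 genes of homologous recombination: BRCA1, BRCA2, PALB2, BARD1, RAD51C, RAD51D, XRCC2, XRCC3 and RBBP8. They were chosen by name, as a set of known repair genes, out of 60876 annotated genes. Homologous recombination repairs a broken chromosome by copying the intact sister strand, and it acts mainly in the S and G2 phases of the cell cycle. RBBP8, better known as CtIP, helps the MRE11 complex to start trimming the broken ends, BRCA1 and its partner BARD1 favour this trimming, and PALB2 links BRCA1 to BRCA2, which acts on the trimmed single-stranded DNA. RAD51C, RAD51D, XRCC2 and XRCC3 are paralogs of each other that act after the trimming, in the search for the intact copy. Loss of several of these genes is known to raise the risk of breast and ovarian cancer, and cells without BRCA1 or BRCA2 are known to be sensitive to CX-5461, which also binds G-quadruplex DNA.

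The RNA came from MDA-MB-231, an established triple-negative human breast cancer cell line. RBI2 and CX-5461, both studied as inhibitors of ribosomal RNA synthesis, were each given at 5 µM, and the labels place the treated cells at 10, 30 or 120 min. The control cells are described as untreated in the methods of the study and as DMSO-treated elsewhere in it. The cells carried no engineered change that the labels name. Each of the 7 groups held 2 libraries of poly(A) RNA, and all comparisons with the control share its 2 libraries. The names of the deposited files carry other time codes than the sample labels for the 12 treated libraries, so that every time below is the labelled one. The labels do not say that replicates were separate cultures, and the p-values therefore measure the spread between these libraries. The spread was pooled over all libraries of a fit, so an SE printed with n = 2 against 2 does not come from those libraries alone.

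Each library held between 14112299 and 24849354 estimated reads. Control replicate 2 stood apart from the rest. Mitochondrial genes took 20.4% of its reads, against 8.05% to 11.2% in the other 13 libraries. Between the control replicates 1412 of 15426 tested genes were at least 2-fold apart, against 461 to 629 in the treated pairs. The pooled spread joins the control pair with these closer treated pairs, so it can understate the error of comparisons with the control. The markers of the cell line were present, with VIM, the mesenchymal filament vimentin, between 2084 and 2694 TPM (reads divided by transcript length and scaled to a common total), and PGR, the progesterone receptor, at 0. The summed TPM of 8 mesenchymal markers lay between 3506 and 3873 in the control and between 3630 and 4190 in the treated groups. That of 8 luminal or epithelial markers lay between 55.3 and 84.1 in the control and between 69.6 and 93.5 in the treated groups, most of it from KRT19 at 40.3 to 76.6 TPM and EPCAM at 11.4 to 22.4 TPM. Among the mesenchymal markers SNAI2 differed between the compounds labelled 10 min (edgeR adjusted p = 0.0269) and over the labels of RBI2 (0.0286). These SNAI2 results were lost in 6 and 7 of 14 fits that left out 1 library. In RNA from whole cultures, fewer cells that express a gene and less RNA of it per cell cannot be told apart.

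All 9 genes were detected in every library and passed the filter on low counts. Between genes, levels are compared as TPM, which takes the length of the transcripts into account. RAD51C had the highest median, 79.1 TPM over the 14 libraries, with a range from 66.3 to 90.2. This place depends on the estimated division of its reads between transcripts, described below. The short RAD51C-202, RAD51C-203 and RAD51C-217, of 779, 567 and 474 bases, took 20.9%, 18.9% and 12.6% of them, and short lengths raise TPM. RBBP8 followed with a median of 68.2 TPM and a range from 60.4 to 80.7, so that the ranges of both genes overlapped. A gap separated them from XRCC3 (median 28.9 TPM), XRCC2 (20.6 TPM) and BRCA1 (17.8 TPM), whose ranges also overlapped.

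PALB2 had a median of 12.8 TPM, BRCA2 11.3 TPM, BARD1 9.18 TPM and RAD51D 8.67 TPM. These 4 genes could not be ordered beyond the spread of the libraries, since RAD51D ranged from 4.20 to 12.4 TPM and PALB2 from 5.93 to 15.9 TPM. The end-trimming factor RBBP8 was thus above BRCA1 and BRCA2 in every library. Reads per effective length gave the same order of medians. Within a library that scale orders the genes as TPM does, by its definition, so it is no separate check.

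**Figure D1:**
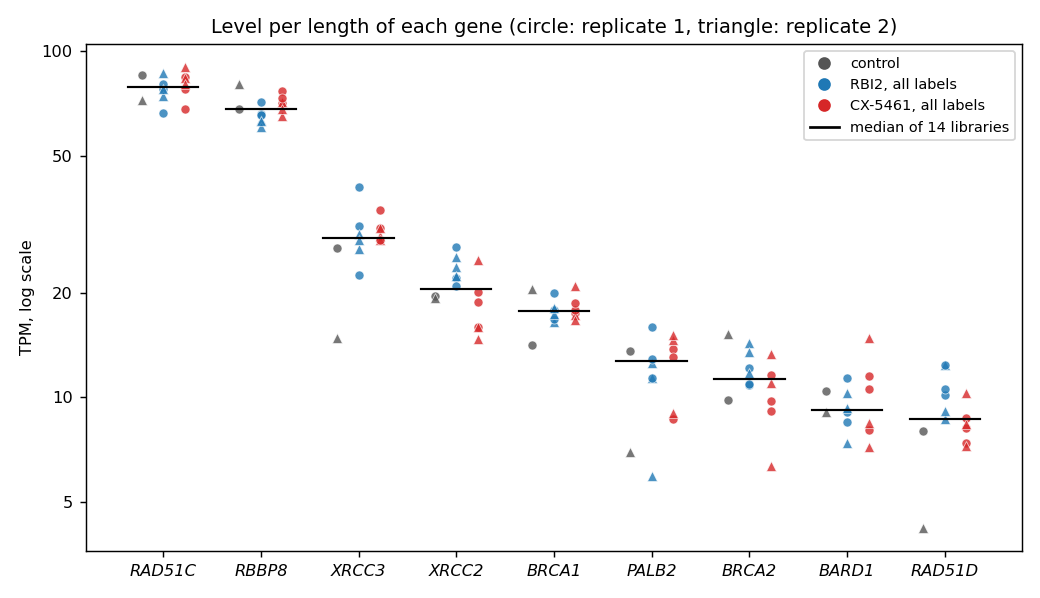
Level per length of each gene in TPM on a log axis, with a point for each of the 14 libraries (grey for control, blue for RBI2, red for CX-5461) and a line for the median. RAD51C and RBBP8 lie above 60 TPM in every library, and the lowest points of XRCC3 (14.9 TPM) and RAD51D (4.20 TPM) are both control replicate 2.

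Salmon divides the reads of a gene between its transcripts, and these shares are estimates. BARD1 and BRCA2 were each nearly all 1 transcript, with 98.4% of the reads of BARD1 on BARD1-201 and 91.8% of those of BRCA2 on BRCA2-201. PALB2 was divided between PALB2-201, of 4008 bases, and PALB2-206, of 3963 bases, and the division differed widely between libraries. In the control, PALB2-201 took 85.3% and 98.0% of the reads and PALB2-206 took 0% in both libraries. In CX-5461 labelled 120 min, PALB2-206 took 81.9% and 90.4%. The replicates of 1 group could differ as much as the groups did, since PALB2-206 took 55.1% in replicate 1 and 0% in replicate 2 of RBI2 labelled 10 min.

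XRCC2 showed the same on a pair of transcripts of almost equal length, where XRCC2-202, annotated without a defined coding sequence, took 0% in replicate 1 and 58.4% in replicate 2 of CX-5461 labelled 30 min. BRCA1 was divided between the full-length BRCA1-203, with 19.2% to 85.4% of its reads by library, and BRCA1-201. Control replicate 2, which gave the 19.2%, had its largest share, 35.1%, on BRCA1-219, and this transcript took at most 0.688% in the other 13 libraries. RAD51C was spread over short transcripts, and its full-length RAD51C-201 held 5.75% of its reads. The shares of these transcripts were not tested between groups, and all tests below are on the sum of a gene.

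Several genes overlap others in the annotation. XRCC3 (chr14:103697609-103715504, minus strand) shares exon bases with KLC1 on the opposite strand, which held 1305 to 2859 reads. A long non-coding RNA on the strand of BRCA1, ENSG00000267002, held 81.2 to 194 reads. The libraries were made with a stranded kit, but whether the assignment of reads used the strand is not given in the sources used here.

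Across the 14 libraries some of the genes varied together. The correlation of log2 CPM was highest between PALB2 and BARD1, with a Pearson's r of 0.91, and 0.85 between BRCA1 and BRCA2. It was lowest between RAD51D and RBBP8, at -0.88, and PALB2 and XRCC3 gave -0.86. Of 36 pairs of the 9 genes 20 had an r above 0. These values describe the 14 libraries, which share their groups, and control replicate 2 is the highest or the lowest library for 8 of the 9 genes.

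Among 10569 genes at 5 CPM or more, the one most like BRCA1 over the libraries was ZNF318 (r = 0.97), and the one most like BRCA2 was ZMYM1 (r = 0.97). OBI1 was closest to PALB2 (r = 0.98), PPP4R2 to BARD1 (r = 0.97) and ZC3H14 to RBBP8 (r = 0.99). Of the 4 paralogs, SPHK2 was closest to RAD51D (r = 0.96), RFWD3 to XRCC2 (r = 0.96) and GLI4 to XRCC3 (r = 0.97). RAD51C, whose level hardly varied, had no neighbour above TIMM21 (r = 0.80).

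Because CX-5461 is known to bind G-quadruplex DNA, the promoters of the 9 genes were searched for letters that can form it. The windows are those of RefSeq on GRCh38.p14, each of 300 bases around an annotated start, and 13 windows belonged to the 9 genes out of 35116 in all. The pattern searched was 4 runs of GGG with 1 to 7 bases between runs, on both strands. It was found in 4 of the 13 windows, those of BARD1, RBBP8 and RAD51D, whose 2 windows overlap and hold the same match, and in 24.86% of all windows. The letters TGACGTCA, known as the cyclic AMP response element, were found in 3 of the 13 windows, of RAD51C, whose windows overlap, and of XRCC2, and in 1.848% of all windows. The E2F letters TTTGGCGC and TTTCGCGC, searched on both strands, were found in 0 of the 13 windows and in 1.148% of all windows, and CCAAT in 3 of the 13, of BRCA1, PALB2 and XRCC3, and in 34.61% of all windows. A match describes letters in a window and is neither a bound site nor a cause of any level.

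The stretches upstream of 1 RefSeq start each are printed for XRCC2, BARD1, RAD51D and RBBP8, the genes that differed between the compounds in the tests that follow. They lie at chr7:152676194-152676391 (minus strand) for XRCC2, chr2:214809684-214809933 (minus) for BARD1, chr17:35119861-35120008 (minus) for RAD51D and chr18:22933078-22933327 (plus) for RBBP8, and read 5′ to 3′ on the strand of the gene. Capitals mark TGACGTCA in XRCC2 and the G-quadruplex pattern of the opposite strand, seen as runs of CCC, in BARD1.
XRCC2: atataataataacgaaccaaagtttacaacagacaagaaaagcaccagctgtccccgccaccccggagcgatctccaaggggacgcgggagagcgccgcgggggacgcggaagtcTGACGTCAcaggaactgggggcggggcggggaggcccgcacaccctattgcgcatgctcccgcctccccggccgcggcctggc
BARD1: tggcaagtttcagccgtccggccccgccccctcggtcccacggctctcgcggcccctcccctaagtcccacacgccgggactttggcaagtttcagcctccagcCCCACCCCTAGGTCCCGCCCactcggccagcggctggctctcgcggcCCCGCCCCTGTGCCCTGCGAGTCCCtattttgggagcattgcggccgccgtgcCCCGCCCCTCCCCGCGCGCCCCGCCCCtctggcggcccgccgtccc
RAD51D: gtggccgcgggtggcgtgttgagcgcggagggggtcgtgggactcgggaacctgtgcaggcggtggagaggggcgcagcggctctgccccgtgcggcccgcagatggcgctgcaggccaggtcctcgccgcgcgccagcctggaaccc
RBBP8: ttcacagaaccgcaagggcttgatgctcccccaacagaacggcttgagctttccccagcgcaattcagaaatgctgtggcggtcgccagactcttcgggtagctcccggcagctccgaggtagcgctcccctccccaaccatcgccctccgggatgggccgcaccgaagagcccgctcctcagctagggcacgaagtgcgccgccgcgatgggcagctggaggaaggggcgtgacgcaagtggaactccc
BARD1 held the G-quadruplex pattern in 3 separate places of its 250 upstream bases. In the windows of RAD51D and RBBP8 the pattern lay outside the printed stretches, which hold none of the letters searched.

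The first question was whether either compound changed the levels of the 9 genes against the control at any label. A gene was called with an adjusted p under 0.05 and at least a 2-fold change, and 0 of 9 genes were called in any of the 6 comparisons. The share of all tested genes so called was 0.0778%, 0.0389% and 1.82% for RBI2 labelled 10, 30 and 120 min, and 1.64%, 0% and 0.0454% for CX-5461. At an unadjusted p under 0.05 without the limit on the fold, 2, 5 and 5 genes passed for RBI2, against 12.9%, 25.8% and 35.9% of all genes, and 3, 7 and 0 for CX-5461, against 22.5%, 22.9% and 12.4%. With an adjusted p under 0.05 and no limit on the fold, the genes passed in 1 comparison alone, RBI2 labelled 120 min. There 5 of 9 genes passed, 3 lower and 2 higher, beside 18% of all tested genes, made up of 9.07% lower and 8.9% higher. In the other 5 comparisons 0 of 9 passed, beside 0.201% and 0.0713% of all genes for RBI2 labelled 10 and 30 min and 4.77%, 0% and 0.0778% for CX-5461. DESeq2, run as an alternative, also called 0 genes with the limit on the fold, and without it called the same 5 genes at RBI2 labelled 120 min, RBBP8 at RBI2 labelled 30 min, and PALB2 and XRCC2 at CX-5461 labelled 10 min. Of all genes to which DESeq2 gave an adjusted p, it called 26.9%, 9.61% and 6.68% in these 3 comparisons. The median log2 fold change over the 9 genes was -0.10, -0.27 and -0.15 for RBI2 and -0.26, -0.45 and 0.07 for CX-5461 by label, against medians of all genes between -0.05 and 0.06. Without control replicate 2 these medians were 0.10, 0.07 and 0.23 for RBI2 and 0.04, -0.10 and 0.19 for CX-5461.

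**Figure D2:**
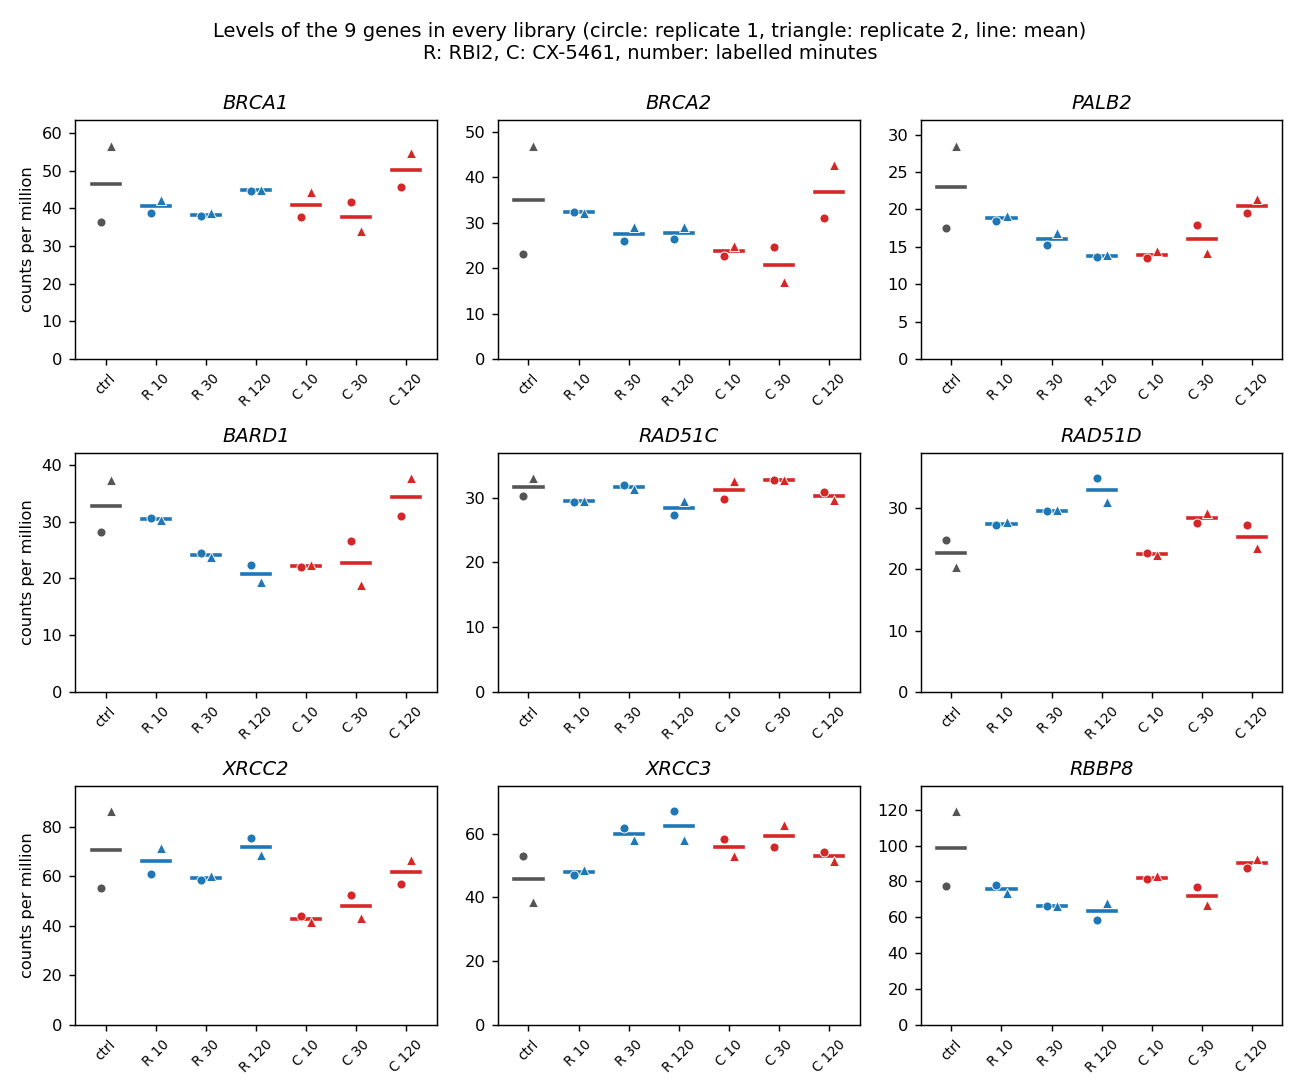
CPM (reads scaled by library size) of the 9 genes in each library, with a circle for replicate 1, a triangle for replicate 2 and a line for the mean of each of the 7 groups. Control replicate 2 lies below control replicate 1 for RAD51D and XRCC3 and above it for the other 7 genes.

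RBBP8, the end-trimming factor (chr18:22798261-23026488, plus strand), fell after RBI2 labelled 120 min. It held 77.6 and 119 CPM in the control replicates, where CPM is the count of a gene scaled by library size, and 58.5 and 68.1 CPM in the RBI2 libraries. Both treated libraries were below both controls. The log2 fold change was -0.64 ± 0.16 (SE, n = 2 against 2, edgeR adjusted p = 0.0287). At the earlier labels of RBI2 its estimates were -0.37 and -0.57, with adjusted p of 0.377 and 0.118.

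PALB2, the link between BRCA1 and BRCA2 (chr16:23603160-23641321, minus strand), also fell. Its controls held 17.5 and 28.5 CPM, and the RBI2 libraries labelled 120 min held 13.6 and 13.9 CPM. Again the groups did not overlap. The log2 fold change was -0.74 ± 0.20 (SE, n = 2 against 2, edgeR adjusted p = 0.0310).

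BARD1, the partner of BRCA1 in a ubiquitin ligase (chr2:214725646-214809683, minus strand), fell from 28.1 and 37.3 CPM in the control to 22.3 and 19.3 CPM. The groups did not overlap, and the log2 fold change was -0.65 ± 0.18 (SE, n = 2 against 2, edgeR adjusted p = 0.0335). Over the labels of RBI2 the level of BARD1 went from 30.7 and 30.2 CPM at 10 min through 24.5 and 23.8 CPM at 30 min to those values at 120 min. A test of equal levels over the 3 labels gave an unadjusted p of 0.0298 for BARD1 in edgeR and an adjusted p of 0.208.

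A pair of the paralogs rose. RAD51D (chr17:35092221-35121522, minus strand) held 24.9 and 20.4 CPM in the control and 34.9 and 31.0 CPM after RBI2 labelled 120 min, without overlap. Its log2 fold change was 0.54 ± 0.12 (SE, n = 2 against 2, edgeR adjusted p = 0.0167). XRCC3, which pairs with RAD51C, held 53.1 and 38.4 CPM in the control and 67.1 and 57.9 CPM after RBI2. Its groups did not overlap either, and its log2 fold change was 0.45 ± 0.14 (SE, n = 2 against 2, edgeR adjusted p = 0.0492).

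The other 4 genes did not pass. BRCA1 (chr17:43044295-43170245, minus strand) held 36.4 and 56.6 CPM in the control and 44.7 and 44.9 CPM after RBI2 labelled 120 min, between the control replicates, with an estimate of -0.05 and a 95% interval from -0.46 to 0.36. BRCA2 (chr13:32315086-32400268, plus strand) held 23.1 and 47.0 CPM in the control, about 2-fold apart, and 26.5 and 29.0 CPM after RBI2, with an interval from -0.96 to 0.30. XRCC2 had an estimate of 0.03 with an interval from -0.37 to 0.43.

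RAD51C (chr17:58692573-58735611, plus strand) was the steadiest of the genes in CPM. It held between 27.3 and 33.0 CPM in all 14 libraries, and its group means differed by at most 0.20 on the log2 scale. For RBI2 labelled 120 min its estimate against the control was -0.15, with a 95% interval from -0.35 to 0.04.

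**Figure D3:**
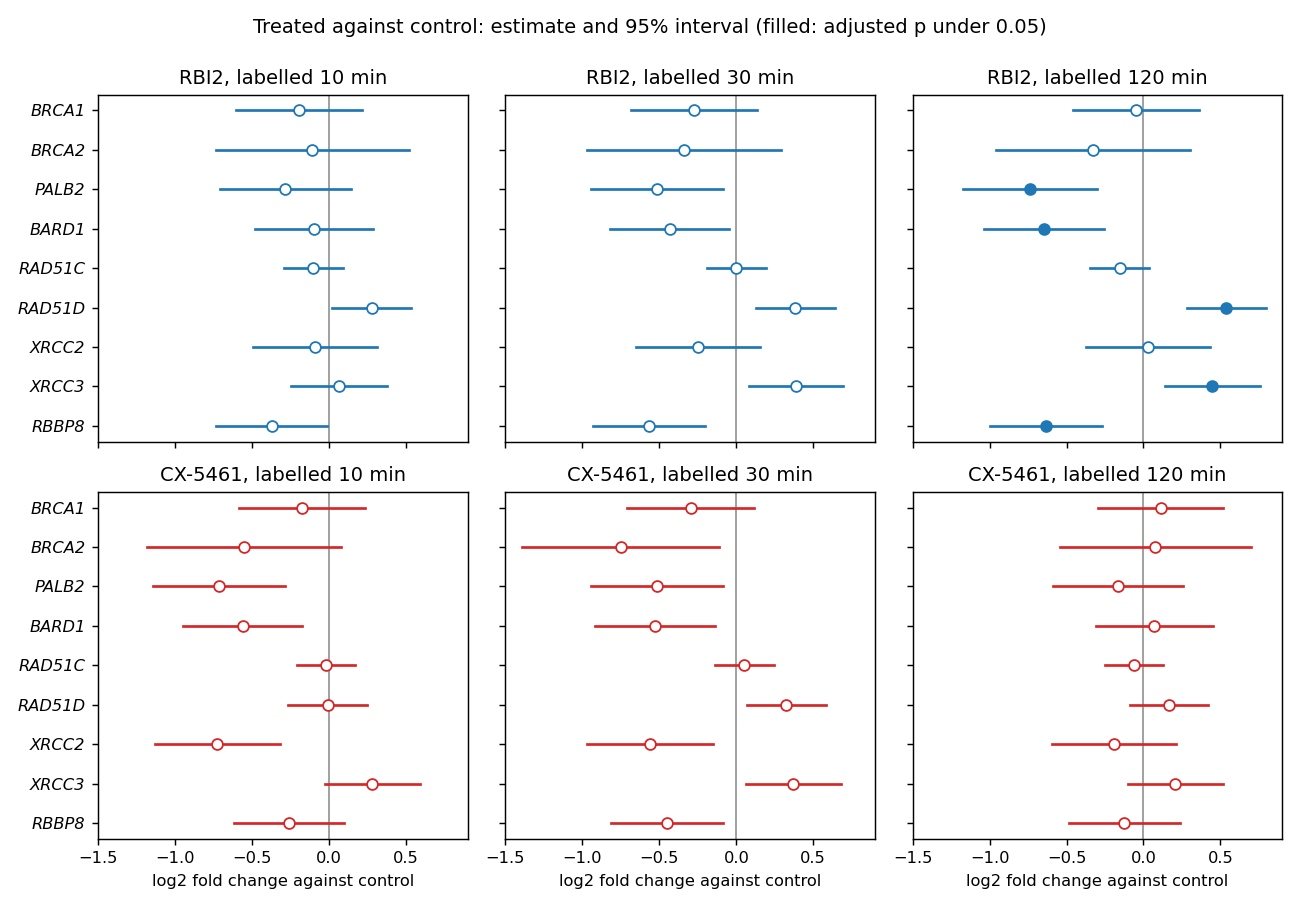
Log2 fold change against the control of each gene, with its 95% interval, for the 3 labels of RBI2 (upper row) and of CX-5461 (lower row). Filled points mark an adjusted p under 0.05 and are found for 5 genes of RBI2 labelled 120 min.

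These 5 calls rested on control replicate 2, which was the higher control for PALB2, BARD1 and RBBP8 and the lower one for RAD51D and XRCC3. Without control replicate 2, 0 of the 9 genes passed for RBI2 labelled 120 min, beside 8.27% of all genes, and the estimates shrank to -0.36 for PALB2, -0.44 for BARD1, -0.30 for RBBP8, 0.40 for RAD51D and 0.23 for XRCC3. Their adjusted p then lay between 0.0588 for RAD51D and 0.235 for XRCC3. Each of the 5 calls was also lost without either RBI2 library of that label, PALB2 and BARD1 without RBI2 replicate 2 of 30 min, BARD1 without RBI2 replicate 2 of 10 min, and XRCC3 without any of 13 libraries. Without control replicate 1, 6 genes passed and PALB2 reached -1.06, beside 43.1% of all genes. Over the 6 comparisons with the control, 5 of 54 values passed with both control libraries, 0 of 54 without replicate 2, beside 0% to 8.27% of all genes by comparison, and 37 of 54 without replicate 1, beside 21.5% to 43.1%. The part of the mitochondrial reads of this library in these results was not tested.

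The genes differ in base composition. RAD51D and XRCC3, which rose, have the highest GC contents of the 9 canonical transcripts, 47.1% and 62.8%, and the others, called or not, lie between 36.2% and 42.8%. With GC content and length corrected for, PALB2 (-0.57, adjusted p = 0.0227 in edgeR) and BARD1 (-0.37, adjusted p = 0.0425) still passed for RBI2 labelled 120 min, whereas XRCC3 was at 0.03, RAD51D at 0.33 and RBBP8 at -0.33, with adjusted p of 0.815, 0.315 and 0.0646. The signs of PALB2, BARD1, RBBP8, RAD51D and XRCC3 were thus the same in these fits, and 3 of the 5 calls were lost. In the corrected fit 10.1% of all genes passed. In a fit of the 4 libraries of this comparison alone 0 of all 14476 genes tested passed, so the 0 of the 9 genes there says nothing about them.

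TPM differ from CPM in their scaling as well as in the use of length. They lack the TMM scaling of the CPM, and their total takes in the mitochondrial genes, with 20.4% of the reads of control replicate 2. The part of the scaling in the values below was not tested. In TPM the groups of PALB2 were not apart. Its controls held 13.7 and 6.95 TPM and the RBI2 libraries labelled 120 min 11.4 and 5.93 TPM. The short transcript PALB2-204, of 626 bases, took 14.2% and 0% of its reads in the control and 14.1% and 0% in these RBI2 libraries. RBBP8, at 68.4 and 80.7 TPM in the control and 65.6 and 63.0 TPM after RBI2, and BARD1, at 10.4 and 9.06 TPM and 8.50 and 7.38 TPM, stayed below both controls. RAD51D and XRCC3 stayed above both controls, with 12.4 and 9.15 TPM against 8.02 and 4.20 TPM for RAD51D. With an edgeR offset for transcript length, 0 of 9 genes passed at an adjusted p under 0.05 in this comparison, where 1.4% of all genes passed.

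**Figure D4:**
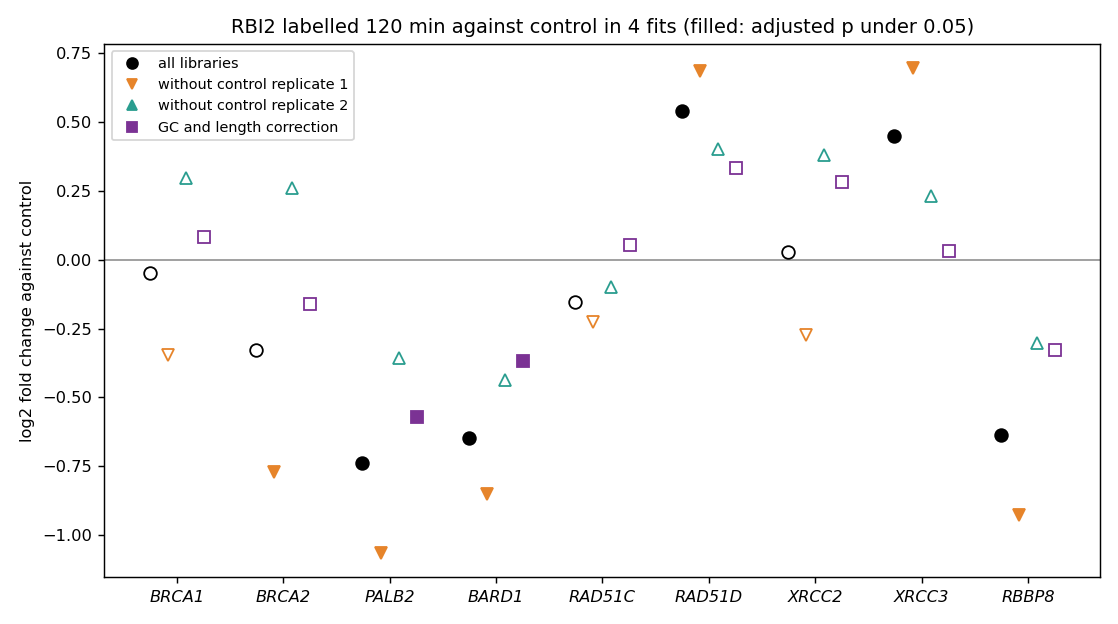
Log2 fold change against the control for RBI2 labelled 120 min in 4 fits: all libraries, without control replicate 1, without control replicate 2, and corrected for GC content and length. Filled symbols mark an adjusted p under 0.05, which 6 genes have without control replicate 1 and 0 genes without control replicate 2.

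For CX-5461 the comparison with the control gave 0 genes at an adjusted p under 0.05 at any label. The closest was XRCC2, which acts in 1 complex with its paralogs RAD51B, RAD51C and RAD51D (chr7:152644776-152676193, minus strand). Its controls held 55.0 and 86.2 CPM, and the libraries of CX-5461 held 43.8 and 41.3 CPM at 10 min, 52.3 and 43.2 CPM at 30 min and 56.9 and 66.6 CPM at 120 min. The libraries of the 2 earlier labels were below both controls. At 10 min the log2 fold change was -0.73 ± 0.18 (SE, n = 2 against 2, edgeR adjusted p = 0.0514). It was -0.37 without control replicate 2 and -1.02 without control replicate 1.

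BRCA2 had its lowest level after CX-5461 labelled 30 min, with 24.6 and 16.9 CPM, and one of its highest at 120 min, with 31.0 and 42.6 CPM. Against the control these gave -0.75 (adjusted p = 0.213 in edgeR) and 0.08 (adjusted p = 0.928). At 30 min the estimate of BRCA2 was -0.15 (adjusted p = 0.968) without control replicate 2 and -1.19 (adjusted p = 0.00177) without control replicate 1. PALB2 held 13.5 and 14.5 CPM at 10 min, 17.9 and 14.1 CPM at 30 min and 19.6 and 21.3 CPM at 120 min. For both genes the libraries of 120 min were above those of the earlier labels. BARD1 held 21.9 and 22.3 CPM at 10 min, 26.5 and 18.8 CPM at 30 min and 31.0 and 37.6 CPM at 120 min, and the test over the 3 labels of CX-5461 gave an unadjusted p of 0.00570 and an adjusted p of 0.108. At an unadjusted p under 0.05 this test passed 5 of 9 genes for CX-5461, beside 21.7% of all genes, and 2 of 9 for RBI2, beside 18.8%. At an adjusted p under 0.05 it passed 0 of 9 genes for each compound in edgeR, beside 2.87% and 1.67% of all genes, and 1 and 0 genes in DESeq2, beside 5.66% and 10%.

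The second question was whether the compounds differed from each other, whose estimates use no control library. All 9 genes were compared at 3 labels and over all labels together. At 10 and 30 min 0 of 9 genes passed at an adjusted p under 0.05, beside 3.06% and 0.013% of all genes, and 3 and 0 of 9 at an unadjusted p, beside 14.2% and 7.79%. At 120 min 2 of 9 passed, 1 higher and 1 lower after RBI2, beside 16.1% of all genes, 5.28% higher and 10.9% lower. Over all labels, with 6 libraries of each compound, 2 of 9 passed, again 1 in each direction, beside 8.76%, 6.81% higher and 1.95% lower. At an unadjusted p, 4 and 3 of 9 passed, beside 31.6% and 27.2%. DESeq2 called XRCC2 at 10 min, 0 genes at 30 min, and BARD1, RAD51D and RBBP8 at 120 min, and RAD51D, XRCC2 and RBBP8 over all labels, beside 4.12%, 0.33%, 20.9% and 12.3% of all genes in DESeq2. Some calls at a single label turned on the control libraries, which enter those fits only through the filter, the scaling and the shared spread. The fit over all labels holds no control library, so that leaving one out repeats the main fit. Without control replicate 1 or 2, XRCC2 passed at 10 min (adjusted p of 0.00767 and 0.00620), and PALB2 (0.00429 and 0.00437) and RBBP8 (0.00228 and 0.00221) passed at 120 min. That made 1 of 9 genes at 10 min, beside 6.21% and 6.09% of all genes, and 4 of 9 at 120 min, beside 27.8% and 27.9%. With the limit on the fold 0 genes passed in each of these comparisons in edgeR and in DESeq2, beside 1.04%, 0.013%, 1.67% and 0.965% of all genes.

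XRCC2 was higher after RBI2 than after CX-5461. The RBI2 libraries held 61.0 and 71.3 CPM at 10 min, 58.5 and 60.2 CPM at 30 min and 75.2 and 68.4 CPM at 120 min, against the CX-5461 values given above. At every label both RBI2 libraries were above both CX-5461 libraries. Over all labels the log2 fold change of RBI2 against CX-5461 was 0.40 ± 0.08 (SE, n = 6 against 6, edgeR adjusted p = 0.00926), which is 1.32-fold with a 95% interval from 1.18 to 1.48. By label the estimates were 0.64, 0.31 and 0.22, with adjusted p of 0.109, 0.778 and 0.459.

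Per length the values were 22.1 and 23.8, 21.0 and 22.4, and 27.2 and 25.5 TPM after RBI2, against 15.9 and 14.8, 18.9 and 15.9, and 20.2 and 24.9 TPM after CX-5461, again without overlap at any label. This difference in XRCC2 was the one that no alternative took below the threshold. It passed in each of the alternative fits, with estimates from 0.35 to 0.43, and without any 1 library, with estimates from 0.33 to 0.44 and adjusted p from 0.00815 to 0.0336. Corrected for GC content and length it was 0.43 (edgeR adjusted p = 0.00129).

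RBBP8 was lower after RBI2. Its RBI2 libraries held 78.1 and 73.7 CPM at 10 min, 66.5 and 66.0 CPM at 30 min and 58.5 and 68.1 CPM at 120 min, and its CX-5461 libraries held 81.2 and 82.8, 77.1 and 66.6, and 87.7 and 92.7 CPM. Both RBI2 libraries were below both CX-5461 libraries at every label. Over all labels the log2 fold change was -0.24 ± 0.07 (SE, n = 6 against 6, edgeR adjusted p = 0.0477). This call was lost on leaving out any of 10 of the 12 treated libraries, with adjusted p of up to 0.127. The estimates of all 14 fits that left out 1 library lay between -0.29 and -0.18. The call was also lost with an offset for transcript length (-0.16, adjusted p = 0.152) and in the fit with a replicate block (adjusted p = 0.0716). Per length the compounds overlapped at 10 min, with 65.7 and 63.5 TPM after RBI2 and 77.0 and 65.0 TPM after CX-5461, and at 30 min, with 71.6 and 60.4 TPM and 70.9 and 71.7 TPM. At 120 min they did not, with 65.6 and 63.0 TPM and 73.3 and 68.0 TPM.

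RAD51D was again on the higher side. Its RBI2 libraries held 27.2 and 27.7 CPM at 10 min and 29.5 and 29.7 CPM at 30 min, and its CX-5461 libraries 22.6 and 22.4, 27.6 and 29.3, and 27.3 and 23.5 CPM over the labels. RBI2 was above CX-5461 at every label. The log2 fold change was 0.37 ± 0.11 at 120 min (SE, n = 2 against 2, edgeR adjusted p = 0.0471) and 0.25 ± 0.07 over all labels (SE, n = 6 against 6, adjusted p = 0.0507). The call at 120 min was lost on leaving out any of the 12 treated libraries, with estimates between 0.31 and 0.48 in all 14 such fits and adjusted p of up to 0.276. Corrected for GC content and length, the adjusted p was 0.428 at 120 min and 0.701 over all labels.

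In BARD1 the order of the compounds turned between the labels, a turn that was not itself tested. At 10 min RBI2 was the higher one, by 0.46 (adjusted p = 0.240 in edgeR), and at 120 min the lower one, with a log2 fold change of -0.72 ± 0.18 (SE, n = 2 against 2, edgeR adjusted p = 0.0235). No library of one compound overlapped the other at these labels. The call at 120 min also held when corrected for GC content and length (-0.39, adjusted p = 0.0216), and it was lost without RBI2 replicate 1, RBI2 replicate 2 or CX-5461 replicate 2 of that label, with estimates of -0.78, -0.63 and -0.54 and adjusted p of 0.0949, 0.142 and 0.154. PALB2 had the same order, with 0.43 at 10 min and -0.57 at 120 min, and passed at neither label with all libraries in the fit (adjusted p of 0.353 and 0.0704).

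RAD51C differed little between the compounds. The RBI2 libraries held 29.4 and 29.5 CPM at 10 min, 31.9 and 31.4 CPM at 30 min and 27.3 and 29.6 CPM at 120 min, and the CX-5461 libraries 29.8 and 32.6, 32.8 and 32.7, and 30.9 and 29.7 CPM. In CPM both RBI2 libraries were below both CX-5461 libraries at every label. Per length they overlapped at every label, with 77.7 and 74.2 TPM against 68.1 and 90.2 TPM at 10 min, for example. Over all labels the estimate was -0.06, with a 95% interval from -0.17 to 0.04 and an edgeR adjusted p of 0.394. BRCA1 gave -0.04 with an interval from -0.18 to 0.10, and XRCC3 gave 0.02 with an interval from -0.15 to 0.20.

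In CPM, RAD51D and XRCC2 were thus above, and RAD51C and RBBP8 below, in both RBI2 libraries at all 3 labels. These are 4 of the 9 genes, beside 9.39% of all tested genes apart in one direction at all labels, 6.09% with RBI2 above and 3.3% with RBI2 below. In TPM, a scale set beside it after the data were seen, 2 of the 9 genes, RAD51D and XRCC2, were apart in one direction at all labels, beside 8.7% of all tested genes. The median log2 fold change of RBI2 against CX-5461 over the 9 genes was 0.28 at 10 min, 0.02 at 30 min, -0.16 at 120 min and -0.04 over all labels, against medians of all tested genes between -0.00079 and 0.0089.

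**Figure D5:**
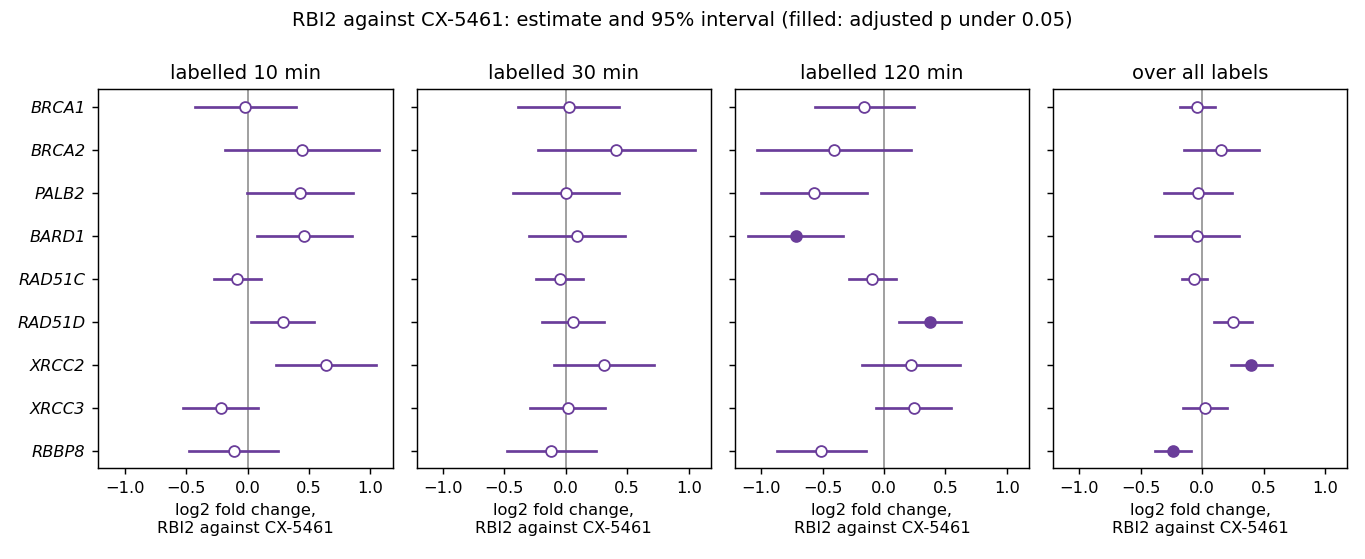
Log2 fold change of RBI2 against CX-5461 for each gene with its 95% interval, at each label and over all labels. XRCC2 lies to the right of 0 in each panel, and BARD1 lies at 0.46 at 10 min and at -0.72 at 120 min.

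The 9 genes were set beside 43 other genes of homologous recombination, which hold the MRE11 complex, the checkpoint kinases, and the helicases and nucleases that resolve joined strands. All 43 were tested. After RBI2 labelled 120 min, 10 of 43 passed at an adjusted p under 0.05 against the control, 2 higher and 8 lower, beside the 18% of all genes given above, and 0 passed with the limit on the fold. SLX4, a scaffold for nucleases, rose with a log2 fold change of 0.75 ± 0.15 (SE, n = 2 against 2, edgeR adjusted p = 0.0140), and TOP3A, the topoisomerase that acts with BLM, rose by 0.60 (adjusted p = 0.0116). BRIP1, a helicase that binds BRCA1, had -0.79 (adjusted p = 0.0264) and DNA2, a nuclease of end trimming, -0.67 (adjusted p = 0.0255). The median of the list was -0.20. Without control replicate 2, SLX4 was at 0.93, TOP3A at 0.45, BRIP1 at -0.44 and DNA2 at -0.36. BRIP1 and DNA2 did not keep their calls. Corrected for GC content and length, SLX4 gave 0.33 (adjusted p = 0.117) and TOP3A 0.35 (adjusted p = 0.0881) against the control.

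Between the compounds at 120 min, 12 of 43 passed, 2 higher and 10 lower after RBI2, beside 16.1% of all genes, and the median was -0.29. SLX4 gave 0.73 ± 0.15 (SE, n = 2 against 2, edgeR adjusted p = 0.0132). ATR, the kinase that answers single-stranded DNA, gave -0.94 (adjusted p = 0.0191) and RMI1, a partner of TOP3A, -0.79 (adjusted p = 0.00732). Without CX-5461 replicate 2 of 120 min, SLX4 was at 0.82, ATR at -0.65 and RMI1 at -0.68, and none of these 3 calls was kept. Over all labels 3 of 43 passed, beside 8.76%, with SLX4 at 0.54 (adjusted p = 0.00457), TOP3A at 0.28 (adjusted p = 0.0132) and RPA1, a subunit of the protein that coats single-stranded DNA, at -0.18 (adjusted p = 0.0318). The call of RPA1 was lost on leaving out any of 8 of the 12 treated libraries. It was also lost in the edgeR fit with a replicate block (adjusted p = 0.0521), and the estimate of RPA1 stayed between -0.21 and -0.15. SLX4 and XRCC2 were therefore both higher after RBI2 than after CX-5461 over all labels. Corrected for GC content and length, SLX4 held at 0.36 over all labels (adjusted p = 0.00461) and TOP3A gave 0.12 (adjusted p = 0.0847).

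Genes of end joining, the route that seals breaks without a template, were read in the same comparisons. Of 17 genes 5 passed for RBI2 labelled 120 min against the control, 1 higher and 4 lower, beside 18% of all genes, with LIG3 at 0.39 (edgeR adjusted p = 0.0421) and RIF1, which protects ends from trimming, at -0.83 (adjusted p = 0.0324). Without control replicate 2 RIF1 was at -0.47, and without control replicate 1 LIG3 was at 0.22, and neither kept its call there. Between the compounds at that label 5 of 17 passed, all of them lower after RBI2, beside 16.1% of all genes. RIF1 was among these, with -1.002 ± 0.22 (SE, n = 2 against 2, edgeR adjusted p = 0.0174) and LIG4, the ligase of this route, gave -0.89 (adjusted p = 0.0316). RIF1 just met the limit on the fold. Without CX-5461 replicate 2 of 120 min, RIF1 was at -0.71 (adjusted p = 0.129) and LIG4 at -0.56 (adjusted p = 0.235). After CX-5461 labelled 10 min 3 of 17 passed against the control, beside 4.77% of all genes, and POLQ, the polymerase of the alternative route, fell with -1.15 ± 0.26 (SE, n = 2 against 2, edgeR adjusted p = 0.0335), also past the limit on the fold. Without control replicate 2, POLQ was at -0.76 and none of these end joining calls was kept. Of the 43 other homologous recombination genes 2 passed in this comparison, both lower. RAD52 was at -0.84 (adjusted p = 0.0290) and RAD54B at -0.54 (adjusted p = 0.0431), and neither kept its call without control replicate 2. The call of RAD54B was lost in 13 of 14 fits that left out 1 library and that of RAD52 in 4.

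Since homologous recombination follows the cell cycle, genes of the cycle were read in the same tests. Of 16 S phase genes 5 passed for RBI2 labelled 120 min against the control, 1 higher and 4 lower, beside 18% of all genes, with CCNE2 at -0.79 (edgeR adjusted p = 0.00576), CDC6 at -0.43 (adjusted p = 0.0133) and MCM2 at 0.41 (adjusted p = 0.0496). On leaving out control replicate 2, MCM2 was at 0.19 and did not keep its call. The call of MCM2 was lost in 13 of 14 fits that left out 1 library. Of 16 genes of G2 and M phase 3 passed, all lower, a share near the 18% of all genes, with BUB1 at -0.57 (adjusted p = 0.0317) and KIF20A at -0.49 (adjusted p = 0.0451). On leaving out control replicate 2, BUB1 was at -0.28 and KIF20A at -0.19, both short of the threshold. The call of KIF20A was lost in 13 of 14 fits that left out 1 library. Between the compounds at 120 min, 5 S phase and 4 G2 and M phase genes passed, all lower after RBI2, beside 16.1% of all genes, with CCNE2 at -0.77 (adjusted p = 0.00670), MCM6 at -0.57 (adjusted p = 0.00530), BUB1 at -0.54 (adjusted p = 0.0381) and CCNA2 at -0.40 (adjusted p = 0.0279). Without CX-5461 replicate 2 of 120 min, CCNE2 (-0.65, adjusted p = 0.0522), BUB1 (-0.41, adjusted p = 0.215) and CCNA2 (-0.32, adjusted p = 0.155) lost their calls, and that of BUB1 was lost in 10 of 14 such fits. Over all labels 3 of 16 S phase genes passed, 1 higher and 2 lower after RBI2, and 2 of 16 of G2 and M phase, both lower, beside 8.76% of all genes. The last were CENPE at -0.66 (adjusted p = 0.000933) and CENPF at -0.48 (adjusted p = 0.00459), a kinesin and a protein of the kinetochore. Both kept their calls without any 1 of the 12 treated libraries. They lost them with the length offset in edgeR, at -0.35 (adjusted p = 0.0993) and -0.11 (adjusted p = 0.297). MCM6 was at -0.30 (adjusted p = 0.00747). Of the 17 end joining genes 3 passed over all labels, 1 higher and 2 lower, with XRCC5 at -0.20 and XRCC6 at -0.15, the subunits of the Ku protein that binds broken ends (adjusted p of 0.0280 and 0.0189). The call of XRCC5 was lost on leaving out any of 8 of the 12 treated libraries, and that of XRCC6 on leaving out 1 of them. After CX-5461 labelled 10 min 1 S phase gene passed against the control, CCNE1 at 0.62 (adjusted p = 0.0122), and 1 gene of G2 and M phase, CCNA2 at -0.46 (adjusted p = 0.0295), beside 4.77% of all genes, and CCNA2 was at -0.27 without control replicate 2. Between the compounds at 10 min 1 S phase gene passed, CCNE1 at -0.55 (adjusted p = 0.0294), beside 3.06% of all genes, and its call was lost in 8 of 14 fits that left out 1 library. The test of equal levels over the labels passed CCNE2 (adjusted p = 0.0138) and MCM6 (adjusted p = 0.0490) for RBI2, beside 1.67% of all genes. For CX-5461 it passed CCNE1 (adjusted p = 0.0158) and, of the 43 other homologous recombination genes, the helicase WRN (adjusted p = 0.0414), beside 2.87%. These calls of CCNE2, MCM6, CCNE1 and WRN were lost in 4, 12, 3 and 12 of 14 fits that left out 1 library. Against the control and between the compounds at 120 min, the medians were -0.20 and -0.13 for end joining, -0.03 and -0.17 for S phase and -0.17 and -0.26 for G2 and M phase genes, beside 0.01 for all genes in each. The part of these genes in the levels of the 9 genes was not tested.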

How the data were processed

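Stranded poly(A) RNA-seq libraries were sequenced on a HiSeq2000, reads of ribosomal RNA were removed, and the authors mapped the rest to GRCh38 transcripts with Salmon. The submitters' processing notes name Salmon 1.3.0, STAR 2.7.6a, SAMtools 1.11, bedtools 2.29.2 and DESeq2 1.28.1. The deposited files give, for each transcript, an estimated count and the TPM, the count divided by effective length and scaled to a common total.

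Transcripts were matched by Ensembl identifier to GENCODE 44, and 225662 of 228754 had an entry. Those without one held 1.03% to 1.13% of the reads. The estimated counts were summed by gene, rounded, scaled by TMM and tested in edgeR 4.0.16 (R 4.3.3) by the quasi-likelihood F test, with 1 model of 7 groups, or of 12 treated libraries with the label as a term for the comparison over all labels. Genes passed filterByExpr at a minimum count of 10, and p-values were adjusted by Benjamini-Hochberg over all 15426 genes tested, 15442 in the 12 libraries. A call with the limit needed an adjusted p under 0.05 and a log2 fold change of at least 1 in size. Since no gene of the 9 met it, results at the adjusted p alone are given too. CPM are counts scaled by library size and TMM. The 9 genes together held 4994 to 9431 reads in a library. Sequences are from the RefSeq promoter windows.

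All 9 genes are named. Of each wider list, at most 2 rises and 2 falls with the greatest log2 fold change are named among those past the adjusted p, and for each of the 9 the genes with the highest Pearson's r. The genes and lists were chosen with earlier results of these data known. An item of the wider list of homologous recombination genes is not reported here. The alternatives were DESeq2 1.42.0, its size factors, no filter, no limit on the fold, an offset for the average transcript length, a smooth correction for GC content and length (mgcv 1.9.3), the replicate number as a block, the libraries of a comparison alone, leaving out each library, and, added after the data were seen, TPM in place of CPM for the overlap of libraries. The code was tested on simulated data. Numbers of the same replicate did not pair the samples: over 21 pairs of groups the correlation of their deviations ran from -0.18 to 0.18, and 3 were above 0.1.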

Additional observations from a re-analysis of the deposited data

Results flagged for a closer look

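Each of these values is a difference between RBI2 and CX-5461 that passed an adjusted p under 0.05 in edgeR. BARD1 was lower after RBI2 at 120 min, with a log2 fold change of -0.72. RAD51D was higher at that label, with 0.37. Over all labels XRCC2 was higher after RBI2, with 0.40, and RBBP8 lower, with -0.24. None of these reached a 2-fold difference. The values of each library are given in the report, and only that of XRCC2 kept its call in each alternative fitted and without any single library.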

How the results depend on the processing

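No value of the 9 genes that had passed the threshold changed its sign under another setting, and 0 of 9 genes passed the limit on the fold under any setting with all libraries. Of 90 log2 fold changes per setting, most of them not called, the sign changed in 3 with DESeq2, 3 with its size factors, 4 with no filter, 13 with the length offset, 20 with GC content and length corrected for and 1 with the replicate block. Where a count changed, the cause was not tested.

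Removing the limit on the fold gave 5 genes for RBI2 labelled 120 min, 2 between the compounds at 120 min and 2 over all labels. At an adjusted p under 0.05, DESeq2 called 1 gene for RBI2 labelled 30 min, 2 for CX-5461 labelled 10 min, 1 between the compounds at 10 min and 1 over the labels of CX-5461. These stood beside 9.61%, 6.68%, 4.12% and 5.66% of all genes in DESeq2. Its size factors in edgeR called 1 for CX-5461 labelled 10 min, beside 4.78%. With no filter 3 passed for RBI2 labelled 30 min, 4 and 5 for CX-5461 labelled 10 and 30 min, 1 between the compounds at 10 min, and 1 and 3 over the labels of RBI2 and CX-5461, beside 6.7%, 6.78%, 6.25%, 2.72%, 4.28% and 5.8% of the 34232 genes tested without a filter. The length offset left 0 for RBI2 labelled 120 min and 1 between the compounds at 120 min, beside 1.4% and 6.55%. The libraries of a comparison alone gave 0 for RBI2 labelled 120 min, 4 between the compounds at 10 min and 3 over the labels of RBI2, beside 0%, 10.6% and 22.6%.

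Correcting for GC content and length called 2 genes for RBI2 labelled 120 min, 2 for CX-5461 labelled 10 min and 1 between the compounds at 10 min, with or without the replicate block, beside 10.1%, 7.69% and 5.75% of all genes without it and 9.03%, 7.42% and 5.17% with it. It moved the median of the 9 genes to -0.0608 and 0.0303 for RBI2 labelled 30 and 120 min, -0.0735 and -0.219 for CX-5461 labelled 10 and 30 min and 0.0840 between the compounds at 10 min. With the replicate block as well these were -0.0582, 0.0306, -0.0708, -0.216 and 0.0840. The replicate block alone left 1 gene, XRCC2, over all labels, where RBBP8 had an adjusted p of 0.0716, beside 6.18% of all genes. It left 3 S phase genes for RBI2 labelled 120 min, beside 15.5%. In TPM in place of CPM, chosen after seeing the data, 2 genes in place of 4 were apart in one direction between the compounds at all labels.

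Among the other homologous recombination genes, 10 passed for RBI2 labelled 120 min. There 1 passed with the length offset, 6 with the correction, 4 with the correction and the block and 0 in the libraries alone. Of all genes, 1.4%, 10.1%, 9.03% and 0% passed in these fits. Between the compounds at 120 min (12 genes) the offset left 4, beside 6.55%. Over all labels (3 genes) DESeq2 called 5, no filter 8 and the offset 6, beside 12.3%, 7.4% and 9.38%. The correction called 9 with or without the block, beside 21.2% without it and 18% with it. For RBI2 labelled 120 min, 0 end joining genes passed with the offset and 0 in the libraries alone, beside 1.4% and 0% of all genes. Between the compounds at 120 min 2 passed with the offset, 9 with the correction and 10 with correction and block, beside 6.55%, 15.5% and 14.7%. For CX-5461 labelled 10 min 7 passed with no filter, 1 with the offset and 0 in the libraries alone, beside 6.78%, 2.26% and 0.0208%. S phase genes numbered 8 with DESeq2, 0 with the offset and 0 in the libraries alone for RBI2 labelled 120 min, beside 26.9%, 1.4% and 0%. Between the compounds at 120 min they numbered 3 with no filter and 1 with the offset, beside 8.49% and 6.55%. For RBI2 labelled 120 min, G2 and M phase genes numbered 7 with DESeq2 and 6 with no filter, beside 26.9% and 11%. They numbered 0 with the offset, 5 with the correction with or without the block and 0 in the libraries alone. Of all genes 1.4%, 10.1% (9.03% with the block) and 0% passed there. Between the compounds at 120 min they numbered 7 with no filter, 0 with the offset and 7 in the libraries alone, beside 8.49%, 6.55% and 22.8%. For CX-5461 labelled 10 min, no filter gave 7 other homologous recombination, 3 S phase and 5 G2 and M phase genes, beside 6.78%. The offset gave 1, 0 and 0, and the libraries alone 0, 0 and 0, beside 2.26% and 0.0208%. DESeq2 gave 2 S phase genes there, beside 6.68%. The correction gave 2 S phase and 2 G2 and M phase genes, beside 7.69%. The correction with the block gave 2 S phase genes, beside 7.42%. Over all labels, DESeq2 called 6 end joining, 6 S phase and 4 G2 and M phase genes, beside 12.3% of all genes. The correction called 7, 7 and 8, beside 21.2%, and with the block 7, 7 and 7, beside 18%. No filter gave 5 end joining genes there, beside 7.4%. The offset left 1 end joining and 0 G2 and M phase genes, beside 9.38%.

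Leaving out 1 library at a time gave the following lowest and highest values, with a lone library taken to vary like the other groups. With the limit on the fold, genes passed only without control replicate 1, for RBI2 labelled 120 min and for CX-5461 labelled 10 and 30 min. In each of these comparisons more of all genes met the limit there than with all libraries. At the adjusted p alone 0 to 4, 0 to 8 and 0 to 6 passed for RBI2 by label and 0 to 7, 0 to 8 and 0 to 4 for CX-5461. These highest counts were without control replicate 1, and without control replicate 2 all were 0. Between the compounds the counts without either control library are given above, with the share of all genes. Both calls at 120 min were lost without RBI2 replicate 1 of that label. Over all labels 1 to 3 genes passed, and 2 with all libraries, beside 8.76% of all genes in that fit. In the tests over labels the counts of the 9 genes were highest without control replicate 1, and the same without control replicate 2. No share of all genes was set beside these counts, which are therefore not read. The medians ran from -0.39 to 0.10, -0.57 to 0.0697 and -0.35 to 0.23 for RBI2, from -0.54 to 0.0410, -0.73 to -0.10 and -0.18 to 0.19 for CX-5461, from 0.26 to 0.29, -0.06 to 0.14 and -0.29 to -0.09 between the compounds, and from -0.08 to 0.03 over all labels.

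The other homologous recombination genes gave 0 to 26 for RBI2 labelled 120 min, 0 to 21 between the compounds at 120 min and 1 to 5 over all labels, lowest without RBI2 replicate 2 of 10 min. End joining genes gave 0 to 10, 0 to 7 and, for CX-5461 labelled 10 min, 0 to 9. S phase genes gave 0 to 11 and 0 to 9, and G2 and M phase genes 0 to 11 and 0 to 10. All of these counts at 120 min were 0 without RBI2 replicate 1 of that label, those between the compounds also without RBI2 replicate 2, and they were highest without a control library. Without CX-5461 replicate 2 of 120 min those between the compounds were 0, for S phase genes 1. The count of G2 and M phase genes between the compounds, 4 with all libraries, was also 0 without RBI2 replicate 1 of 30 min, a library outside that comparison, and 1 to 2 without any of 7 others. For CX-5461 labelled 10 min the counts of these lists moved as well. More of all genes passed there without control replicate 1 than with all libraries. The same held for RBI2 labelled 120 min against the control and between the compounds at 120 min. No share of all genes is set beside the counts of this paragraph, which are therefore not read as results about the lists. Over all labels end joining genes gave 0 to 4, lowest without CX-5461 replicate 1 of 120 min, S phase genes 1 to 4, lowest without replicate 2 of any RBI2 label, without either replicate of CX-5461 at 10 min or without replicate 1 of it at 120 min, and G2 and M phase genes 2 to 3. End joining genes for CX-5461 labelled 10 min were at 0 without control replicate 2 or either CX-5461 library.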
